A study of Mus musculus with 10 samples.

Results

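The genes described here encode the enzymes that remove superoxide and peroxides: the superoxide dismutases Sod1 and Sod2, catalase (Cat), the glutathione peroxidases Gpx1 and Gpx4, and the peroxiredoxins Prdx2, Prdx3, Prdx4, Prdx5 and Prdx6. They were chosen by name, and every probe set whose annotation gave that single gene symbol was taken, whatever its level. A probe set is a group of short oligonucleotides that together read 1 transcript. Of the 10 genes, 8 were found, with 21 probe sets among the 45037 of the array that are not controls. The transcript levels of Prdx5 and Prdx6 were not analysed here.

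Liver RNA came from 10 female mice 3 months of age on a C57BL/6 background, with 1 array per animal. Of these, 5 carried human APOE3 in place of mouse Apoe (B6.129P2-Apoetm2(APOE*3)Mae) and 5 carried human APOE4 (B6.129P2-Apoetm3(APOE*4)Mae), both homozygous and driven by the mouse Apoe promoter. All animals thus lacked mouse Apoe, and all were fed a cholesterol-supplemented diet (2 g/kg) with 41% of its energy from milk fat. The series' design text gives 6 weeks on this diet and the growth protocol 2 months. No mice on another diet and no mice with mouse Apoe were part of the comparison, which asks how transcript levels differ between APOE4 and APOE3 livers.

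Superoxide, which leaks from the respiratory chain and from oxidases, is turned into hydrogen peroxide by superoxide dismutases. Hydrogen peroxide is then broken down by catalase in peroxisomes and, at the cost of glutathione, by the selenium-containing glutathione peroxidases. Peroxiredoxins also break it down, most of them at the cost of thioredoxin. Hepatocytes are rich in peroxisomes and in these enzymes, and red blood cells carry much catalase and Prdx2.

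Of the 21 probe sets, 17 from all 8 genes averaged 4 log2 or more over the 10 arrays and were tested. None of the 17 passed the threshold of an adjusted p of 0.05 in limma, against 0.0815% of the 14732 probe sets tested on the array. The adjusted p-values of the 17 lay between 0.52 and 0.98. At an unadjusted p under 0.05 limma gave 1 of 17 (5.88%), a Cat probe set, where 8.00% of all tested probe sets reached that level. The differences, APOE4 minus APOE3 on the log2 scale, were above 0 for 9 and below 0 for 8, with a median of 0.01. Over all tested probe sets the median was 0.05 and 60.9% were above 0. This split depends on the scaling: with each array centred on its median over the tested probe sets, 6 of the 17 members were above 0 and 11 below, and 47.5% of all tested probe sets were above 0. The intervals were narrow: for 16 of the 17 probe sets the 95% interval from limma lay within a 1.5-fold difference in either direction. The exception was a dim Prdx2 probe set, whose interval reached 1.55-fold lower in APOE4. For the 13 probe sets with a mean of at least 10, which covered all 8 genes, no interval reached beyond 1.36-fold.

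**Figure D1:**
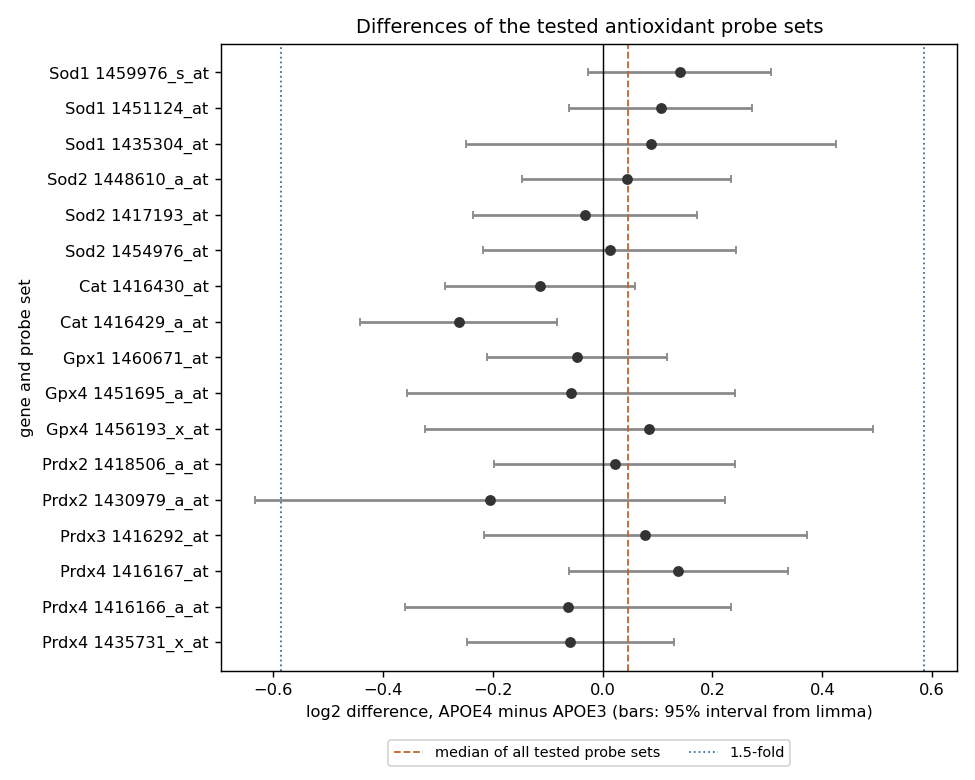
Log2 difference between APOE4 and APOE3 livers (horizontal axis) for each of the 17 tested probe sets, with 95% intervals from limma as bars (n = 5 animals per genotype). The dashed line is the median of all tested probe sets (0.05) and the dotted lines mark 1.5-fold. The interval of Cat probe set 1416429_a_at, from -0.44 to -0.08, lies wholly below 0.

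Cat and Sod1 had the 4 probe sets whose genotypes were farthest apart relative to the spread between animals, with Cat below and Sod1 above in APOE4. The promoters of these genes are shown for that reason, although no probe set passed the adjusted threshold. A link between their motifs and the levels was not tested. They are given as RefSeq has them for GRCm38.p6, from 250 bases before to 50 bases after the annotated start, 5′ to 3′ along the gene. The Cat promoter is chr2:103485104-103485403 on the minus strand, and the Sod1 promoter is chr16:90220512-90220811 on the plus strand. Capitals mark matches to 4 motifs searched on both strands. The GC box was searched as GGGCGG and the CCAAT box by those letters. The core of the antioxidant response element, which Nrf2 binds, was searched as TGACNNNGC. The letters GTAAACA were searched for the site that FoxO factors bind.
Cat: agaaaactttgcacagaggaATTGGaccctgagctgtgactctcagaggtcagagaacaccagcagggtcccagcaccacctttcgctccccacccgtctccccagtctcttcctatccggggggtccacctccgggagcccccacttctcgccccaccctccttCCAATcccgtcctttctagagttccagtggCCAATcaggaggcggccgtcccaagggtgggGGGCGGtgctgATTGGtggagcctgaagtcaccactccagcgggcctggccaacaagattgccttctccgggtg
Sod1: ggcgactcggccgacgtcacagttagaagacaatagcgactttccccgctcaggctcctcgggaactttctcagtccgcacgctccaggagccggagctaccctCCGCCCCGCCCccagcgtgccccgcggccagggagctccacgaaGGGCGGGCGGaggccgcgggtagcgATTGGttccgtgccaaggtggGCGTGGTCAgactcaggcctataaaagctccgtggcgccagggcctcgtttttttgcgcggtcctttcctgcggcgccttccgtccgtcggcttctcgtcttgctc
In the Cat promoter the capitals are 1 GC box, 24 bases upstream of the start, and 4 CCAAT boxes, of which those 85 and 55 bases upstream lie on the gene's strand and those 230 and 13 bases upstream on the other. In the Sod1 promoter they are 4 GC boxes in 2 overlapping pairs, 1 CCAAT box on the opposite strand 77 bases upstream and 1 match to the antioxidant response element core on the opposite strand 56 bases upstream. Among the 9 genes with a promoter sequence, Prdx5 included, the promoter of Sod1 alone held this core, which 12.4% of 32851 promoters of this length hold. The 9 genes had 12 promoters in the table, 4 of them of Gpx4, which partly overlap. A GC box was in 11 of these 12, all but 1 of the Gpx4 promoters, against 35.7% of all promoters. A CCAAT box was in 7 of the 12, of Cat, Gpx4, Prdx4, Sod1 and Sod2, against 37.4%. The FoxO site, in 3.65% of all promoters, matched in 0 of the 12. The Cat promoter was 62% and the Sod1 promoter 66.7% G and C, against a median of 52.7% over all promoters.

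Catalase is the peroxisomal enzyme that splits hydrogen peroxide into water and oxygen, and its gene lies on chromosome 2. By probe set 1416429_a_at, Cat read 13.06, 13.18, 13.33, 13.20 and 13.27 log2 in APOE3 replicates 1 to 5. In APOE4 replicates 1 to 5 it read 12.95, 12.93, 13.00, 12.95 and 12.90. All APOE4 livers lay below all APOE3 livers by this probe set, and no other tested member probe set had genotypes that did not overlap; over the array 2.02% did not overlap. The means were 13.21 ± 0.10 in APOE3 and 12.95 ± 0.04 in APOE4 (SD, n = 5 each), a 1.20-fold lower level in APOE4 with an interval of 1.06 to 1.36. The log2 difference was -0.26 (SE 0.081) with an unadjusted p of 0.0082 and an adjusted p of 0.52 in limma. The exact permutation test over animals gave p = 0.0079, two-sided, the smallest that 5 against 5 animals allow, and 0.39 after adjustment over all tested probe sets.

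The second Cat probe set, 1416430_at, read 13.40, 13.35, 13.48, 13.38 and 13.53 in APOE3 replicates 1 to 5 and 13.35, 13.35, 13.37, 13.23 and 13.27 in APOE4. Here the genotypes overlapped in the narrow range around 13.35 to 13.37. The difference was -0.11 (SE 0.079, adjusted p = 0.73 in limma). The exact permutation p was 0.024, and 0.47 after adjustment over all tested probe sets. The direction was that of the first probe set at less than its size. Taken within each array, the second minus the first probe set was 0.22 ± 0.08 in APOE3 and 0.37 ± 0.05 in APOE4 (SD, n = 5 each). This gap differed between the genotypes by 0.15 (exact permutation p = 0.016, and 0.095 after adjustment over the 12 pairs of probe sets of 1 gene). With each array centred on its median over the tested probe sets, the differences were -0.32 and -0.17, and the genotypes did not overlap by either probe set. Over the array, centring left 282 probe sets whose genotypes did not overlap, 89 higher and 193 lower in APOE4, against 297 before it, of which 214 were higher and 83 lower.

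Sod1, the copper and zinc superoxide dismutase of the cytosol and the space between the mitochondrial membranes, lies on chromosome 16. By its brightest probe set, 1459976_s_at, it read 13.60, 13.49, 13.44, 13.49 and 13.43 in APOE3 replicates 1 to 5 and 13.64, 13.68, 13.60, 13.61 and 13.63 in APOE4. Of the 5 APOE4 livers, 4 lay above every APOE3 liver, and APOE3 replicate 1 was the liver that overlapped. The means were 13.49 ± 0.07 and 13.63 ± 0.03 (SD, n = 5 each), a difference of 0.14 (SE 0.076, adjusted p = 0.67 in limma). The exact permutation p was 0.016, and 0.43 after adjustment over all tested probe sets.

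The probe set 1451124_at gave the same order of the genotypes for Sod1. It read 12.90, 12.79, 12.84, 12.86 and 12.72 in APOE3 and 12.91, 12.95, 12.90, 12.93 and 12.96 in APOE4, so that again 4 of 5 APOE4 livers were above all APOE3 livers. Its difference was 0.11 (SE 0.076, adjusted p = 0.74 in limma). The exact permutation p was 0.016, and 0.43 after adjustment over all tested probe sets. Centring the arrays reduced these differences to 0.08 and 0.05. A dimmer probe set of Sod1, 1435304_at, lay between 5.00 and 5.83 over all animals and differed by 0.09 (SE 0.15). The other 2, 1440222_at and 1447761_x_at, were not tested: they lay at 3.16 to 4.74 and 0.92 to 1.60. In the exact test 4 of the 17 member probe sets, 2 of Cat and 2 of Sod1, had an unadjusted p under 0.05 (23.5%), where 8.52% of all tested probe sets did. The 2 probe sets of a gene read the same gene in the same livers and are not independent.

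Limma and the exact test differed in how many of these probe sets had an unadjusted p under 0.05, 1 in limma and 4 in the exact test. Within a genotype the SD was 0.05 to 0.08 log2 for the bright Cat and Sod1 probe sets, against a median of 0.15 for the 2126 tested probe sets with a mean of at least 10 and 0.23 for all tested probe sets. Limma without a trend draws every variance towards 1 common value. With a trend on the level and robust settings, the SE of Cat 1416429_a_at was 0.054 instead of 0.081, its unadjusted p 0.00043 and its adjusted p 0.25. With no filter on the level, 2 of all 21 member probe sets, 1 of Cat and 1 of Sod1 (1459976_s_at), had an unadjusted p under 0.05, where 8.21% of the 45037 probe sets did. With trend and robust settings 4 of 17 member probe sets, the same 4 as in the exact test, had an unadjusted p under 0.05, where 8.17% of all tested probe sets did, and none had an adjusted p under 0.05.

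**Figure D2:**
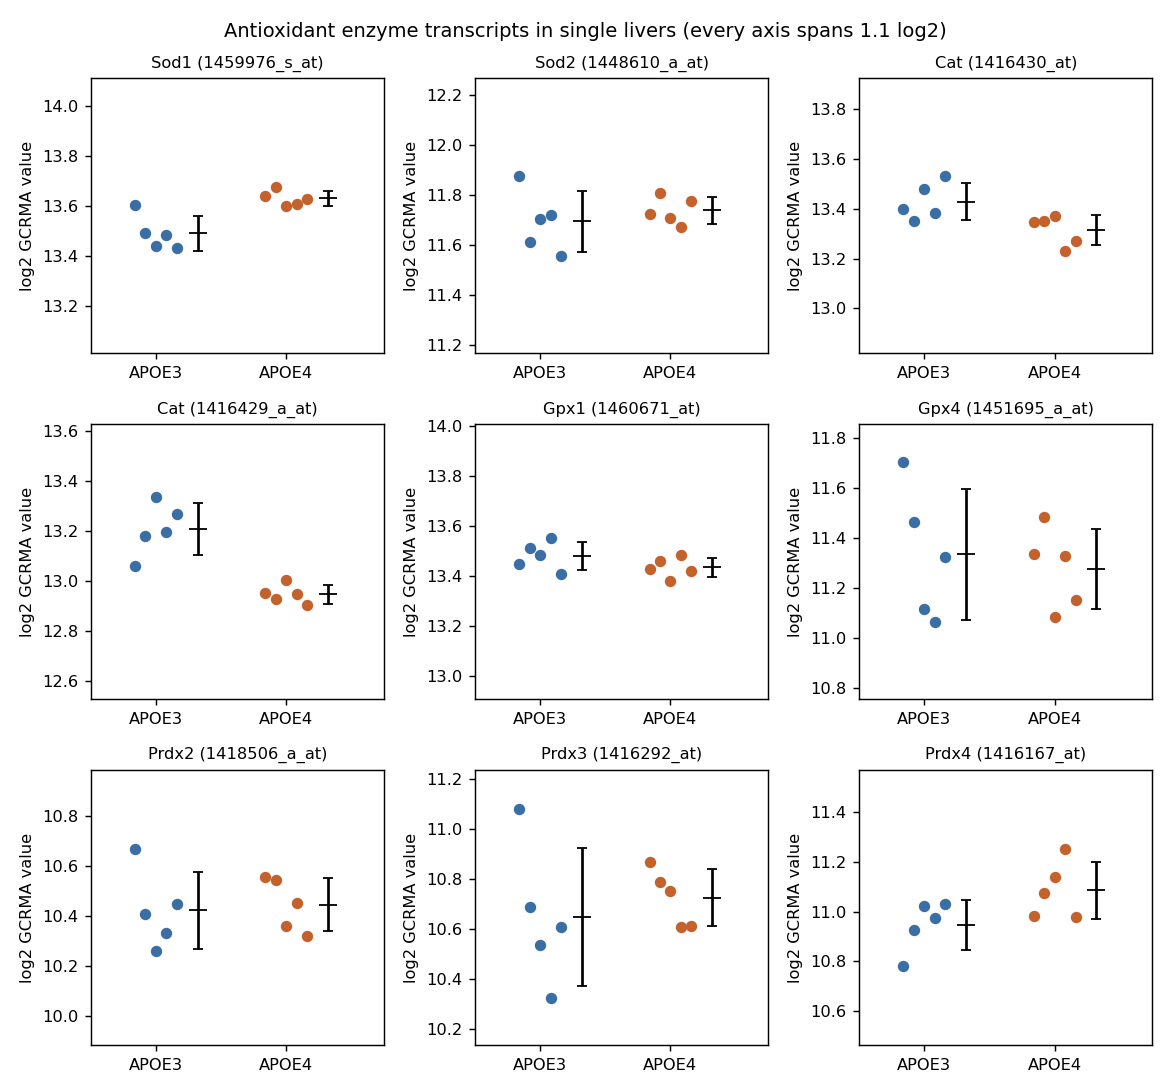
Log2 GCRMA value (vertical axis, spanning 1.1 log2 in every panel) of single livers for the brightest probe set of each of the 8 genes and for both Cat probe sets; points are animals in replicate order, and the black mark and bar are the mean and SD (n = 5 per genotype). The APOE4 points of Cat 1416429_a_at (12.90 to 13.00) lie below its APOE3 points (13.06 to 13.33), while in the other panels the genotypes overlap.

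Sod2, the manganese superoxide dismutase of the mitochondrial matrix, on chromosome 17, had 3 tested probe sets, whose differences lay on both sides of 0. Its brightest, 1448610_a_at, read 11.88, 11.61, 11.71, 11.72 and 11.56 in APOE3 and 11.72, 11.81, 11.71, 11.67 and 11.78 in APOE4. The APOE4 values lay inside the APOE3 range. The difference was 0.04 (SE 0.087), with an interval from -0.15 to 0.23. The others differed by -0.03 (SE 0.093) and 0.01 (SE 0.10). The remaining probe set, 1417194_at, was not tested, at 3.22 to 4.15.

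No glutathione peroxidase probe set passed the test. Gpx1, the abundant cytosolic and mitochondrial form on chromosome 9, read 13.45, 13.51, 13.48, 13.55 and 13.41 in APOE3 and 13.43, 13.46, 13.38, 13.48 and 13.42 in APOE4. It had the smallest spread between animals of all 17 probe sets, with an SD of 0.05 within a genotype, and a difference of -0.05 (SE 0.075; interval -0.21 to 0.12). Gpx4, which reduces lipid peroxides within membranes and guards against ferroptosis, lies on chromosome 10. It read 11.70, 11.46, 11.12, 11.06 and 11.32 in APOE3 and 11.34, 11.48, 11.08, 11.33 and 11.15 in APOE4. The APOE3 livers spanned more than the APOE4 livers, and the difference was -0.06 (SE 0.14). A dimmer probe set, 1456193_x_at, was at 7.99 to 8.99 in APOE3 and 8.35 to 8.82 in APOE4 (0.08, SE 0.19). Without APOE3 replicate 1 the former was at 0.03, and without APOE3 replicate 4 the latter was at -0.05.

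Among the peroxiredoxins, Prdx2, the cytosolic form on chromosome 8, read 10.67, 10.41, 10.26, 10.33 and 10.45 in APOE3 and 10.55, 10.54, 10.36, 10.45 and 10.32 in APOE4 (0.02, SE 0.10). Its second probe set, 1430979_a_at, at 5.18 to 6.23, was the member least well measured, with a difference of -0.21 (SE 0.19) and an interval from -0.63 to 0.22. Without 1 animal this difference ranged from -0.34 (without APOE3 replicate 4) to -0.080 (without APOE3 replicate 1). Prdx3, the form of the mitochondrial matrix on chromosome 19, read 11.08, 10.69, 10.53, 10.32 and 10.61 in APOE3 and 10.87, 10.78, 10.75, 10.61 and 10.61 in APOE4. All 5 APOE4 livers fell within the APOE3 range, and the difference was 0.08 (SE 0.13).

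Prdx4, the peroxiredoxin of the endoplasmic reticulum, on the X chromosome, gave different directions by probe set. By 1416167_at it read 10.78, 10.93, 11.02, 10.98 and 11.03 in APOE3 and 10.98, 11.08, 11.14, 11.25 and 10.98 in APOE4, with 3 of 5 APOE4 livers above all APOE3 livers (0.14, SE 0.091, adjusted p = 0.72 in limma). By 1416166_a_at it read 10.89, 10.87, 10.55, 10.43 and 10.77 in APOE3 and 10.64, 10.75, 10.88, 10.65 and 10.28 in APOE4 (-0.06, SE 0.14). The dimmer 1435731_x_at, at 6.23 to 6.51, also differed by -0.06 (SE 0.086). The gap within an array between 1416167_at and 1435731_x_at differed between the genotypes by 0.20 (exact permutation p = 0.016, and 0.095 over the 12 pairs), and that between 1416167_at and 1416166_a_at also by 0.20 (exact permutation p = 0.22, and 0.44 over the pairs). The last probe set, 1431269_at, was not tested, at 2.06 to 2.76 on all arrays.

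The members varied unequally between animals of 1 genotype. By the brightest probe set of each gene, the SD within a genotype was 0.22 for Gpx4, 0.21 for Prdx3, 0.13 for Prdx2 and 0.11 for Prdx4, and 0.05 to 0.10 for Sod1, Sod2, Cat and Gpx1. APOE3 replicate 1 was the highest APOE3 liver for 5 of the 8 genes: Sod1, Sod2, Gpx4, Prdx2 and Prdx3. It lay 0.43 above its genotype's mean for Prdx3 and 0.37 for Gpx4, and was the lowest APOE3 liver for Prdx4 by 1416167_at, although the highest by 1416166_a_at. APOE3 replicate 4 was lowest for Gpx4 (-0.27) and Prdx3 (-0.32). The dimmer probe sets of Gpx4 and Prdx2 had their highest APOE3 value in replicate 1 and their lowest in replicate 4. The brightest Prdx2 probe set was instead lowest in APOE3 replicate 3 (10.26). In 6 of 10 animals Gpx4, Prdx2 and Prdx3, set side by side after their values were seen, lay on the same side of their genotype's mean. The SD was smaller in APOE4 than in APOE3 for 12 of the 17 probe sets, where it was for 60.9% of all tested probe sets.

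**Figure D3:**
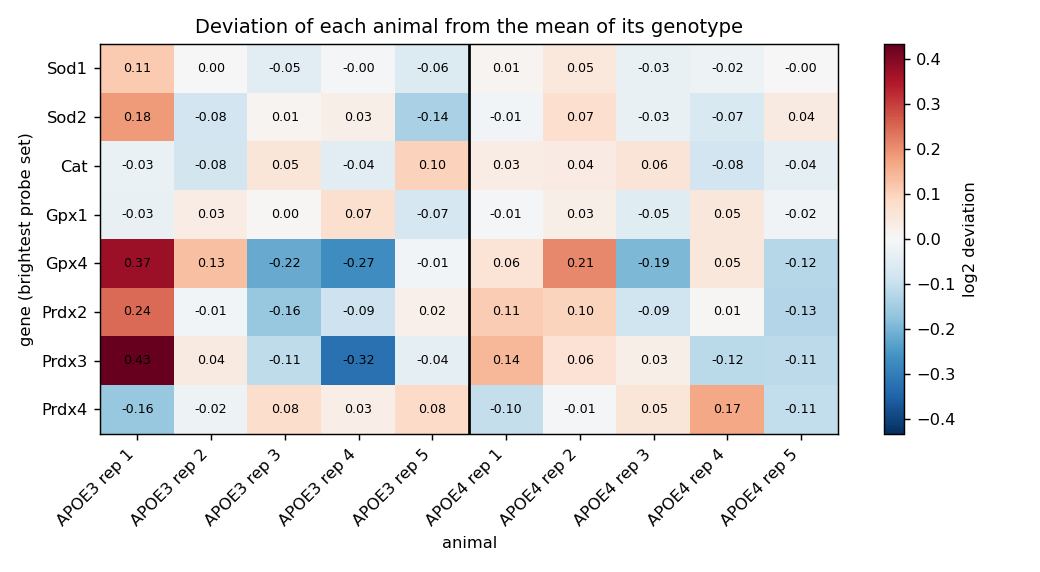
Deviation of each animal from the mean of its own genotype, in log2, for the brightest probe set of each gene (rows) in the 10 livers (columns; APOE3 left of the line, APOE4 right). APOE3 replicate 1 is above its genotype's mean by 0.43 for Prdx3 and 0.37 for Gpx4 and below it by 0.16 for Prdx4.

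Control measures of the RNA and the erythroid markers were set beside this spread, and their part in it was not tested. RNA integrity was read from the Actb controls as the signal at the 3′ end minus that at the 5′ end. It was 2.55 in APOE3 replicate 1 and 2.85 in replicate 4, within the 2.22 to 3.20 of the 5 APOE3 arrays, and for Gapdh it was 0.20 and 0.55, the former the lowest of the 10 arrays. Summed over 12 erythroid markers, the level was 8.81, 8.52, 8.06, 8.39 and 8.29 log2 in APOE3 replicates 1 to 5. In APOE4 replicates 1 to 5 this sum was 8.69, 8.85, 8.13, 8.77 and 8.08. Gpx4 had the widest spread within a genotype among the brightest probe sets. The genes whose mean-centred values over the 10 arrays lay closest to it were Dusp19 (root mean square difference 0.079 log2), Vps29 (0.083) and Pdrg1 (0.087), against 0.196 for Gpx4 about its own mean.

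The label of the tissue held on its markers. Albumin (Alb) read 14.38 to 14.54 on the 10 arrays, mouse Apoe, replaced in both genotypes, 0.96 to 1.19, and the array medians 2.62 to 2.67. Summed over 14 hepatocyte markers, all of them at a mean of 4 or more, the level was 17.10 to 17.43 log2 in APOE3 and 17.18 to 17.35 in APOE4. Of 12 erythroid markers found by single-symbol probe sets, 5 reached a mean of 4, with Hba-a1, Hba-a2 and Slc4a1 below it, and the sum was 8.06 to 8.81 in APOE3 and 8.08 to 8.85 in APOE4, so the levels overlapped throughout. The 19 Kupffer cell and macrophage markers summed to 13.94 to 14.96 and 13.75 to 14.77, and 11 sinusoidal endothelial markers to 11.50 to 11.77 and 11.46 to 12.00. Of the 10 marker lists the adipocyte list had no marker at a mean of 4 or more. Among the others the neutrophil list had the largest median difference, -0.81, taken over only 2 markers. Its summed level over 8 markers was 6.25 to 7.60 in APOE3 and 5.82 to 6.47 in APOE4, with APOE3 replicates 1 and 3 in the overlap. Of these markers S100a8 and S100a9, the calprotectin subunits of neutrophils and monocytes, reached a mean of 4. S100a8 was at 5.87 ± 0.82 in APOE3 and 4.86 ± 0.47 in APOE4 (SD, n = 5 each; -1.01, unadjusted p = 0.019 in limma). S100a9 was at 4.56 ± 0.58 and 3.94 ± 0.29 (-0.62, unadjusted p = 0.034 in limma). Its APOE4 livers read 3.90, 3.63, 3.79, 4.42 and 3.98, around the 4 log2 under which values have no sure scale. The defining granule genes Camp, Ngp, Ltf, Elane and Mpo and the receptor gene Cxcr2 were at 2.59 or less on all arrays. The summed levels of the 5 remaining lists (lymphocyte, stellate cell, cholangiocyte, adipocyte and exocrine pancreas) overlapped between the genotypes. None of 65 tested markers passed the adjusted threshold, and 5 had an unadjusted p under 0.05 in limma: these 2, Oat of hepatocytes (-0.37), Cdh5 of endothelium (-0.34) and Lrat of stellate cells (0.75). In whole liver, fewer cells of a type and less RNA per cell cannot be told apart. The part of cell mixture, S100a8 and S100a9 included, in the Cat and Sod1 values was not tested.

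The genes around these enzymes were taken from 8 lists, each gene being read by its brightest probe set. The lists held 164 names, some of them older names of 1 gene, of which 136 were on the array and 119 were tested beside the members. None of the 119 passed the adjusted threshold, against 0.0820% of the 8535 genes tested in this way, and 8 (6.72%) had an unadjusted p under 0.05 in limma, against 7.16% of all genes. The differences were above 0 for 78 and below 0 for 41, where 59.6% of all genes were above 0. The median over all genes was 0.04. These counts and the list medians below are on the deposited scale. Centring each array, which took all tested probe sets from 60.9% to 47.5% above 0, was not applied to the lists.

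The list of thioredoxin and glutaredoxin recycling holds genes that supply reducing power to the peroxiredoxins, among others. Of its 16 genes 10 were above 0 and 6 below, with a median of 0.04 and 2 at an unadjusted p under 0.05. These were Nnt, the mitochondrial transhydrogenase that makes NADPH (10.66 ± 0.17 in APOE3 and 10.35 ± 0.17 in APOE4, SD, n = 5 each, difference -0.31), and the sestrin gene Sesn1 (-0.33). Srxn1, the sulfiredoxin that restores over-oxidized peroxiredoxins, was next (-0.27). The list of other dismutase and peroxidase genes also held genes that encode neither enzyme. Its 5 tested genes were Ccs, Gpx3, Oxr1, Park7 and Sod3. Of these 4 were above 0, with a median of 0.05 and none at that level. Ccs, the chaperone that loads copper into Sod1, read 10.17 ± 0.19 and 10.33 ± 0.09 (SD, n = 5 each; 0.16, SE 0.11). Gpx3, the plasma glutathione peroxidase, was at 0.20 and Oxr1 at -0.09.

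Glutathione synthesis and reduction had 8 of 9 genes above 0, a median of 0.14 and 1 gene at an unadjusted p under 0.05. This was Ggct, the cyclotransferase of the gamma-glutamyl cycle (7.99 ± 0.16 and 8.42 ± 0.27, SD, n = 5 each; 0.44, adjusted p = 0.53 in limma). Gclm and Gclc, the subunits of the first enzyme of glutathione synthesis, were at 0.17 and 0.22. Selenoprotein synthesis and selenium supply, on which Gpx1 and Gpx4 depend for their selenocysteine, had 11 of 16 genes above 0, a median of 0.03 and none at that level. Secisbp2l was at -0.16, the selenophosphate synthetase gene Sephs1 at 0.20 and the selenocysteine lyase gene Scly at 0.26.

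Peroxisomal import and membrane genes, some of which bring catalase into the peroxisome, had 14 of 18 above 0 and a median of 0.09. At an unadjusted p under 0.05 there was 1, Mpv17l (-0.30). The peroxins Pex26 and Pex19 were at -0.27 and 0.24. Pex5, the import receptor, named here for its role after its value was seen, was at 0.09. Genes that make hydrogen peroxide or superoxide had 12 of 21 above 0, a median of 0.08 and 4 at that level. The first 3 were Ero1a, the oxidase of disulfide formation in the endoplasmic reticulum (7.14 ± 0.14 and 7.58 ± 0.22, SD, n = 5 each; 0.45, adjusted p = 0.45 in limma), Maoa (0.26) and the aldehyde oxidase gene Aox3 (0.30). All 5 APOE4 livers lay above all APOE3 livers for Ero1a. The fourth, named after its value was seen, was the peroxisomal oxidase gene Hao1 (0.26).

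Of 17 transcriptional regulators 8 were above 0 and none had an unadjusted p under 0.05 (median -0.02). Sirt1 was at -0.34, Nfe2l1 at 0.37 and the coactivator gene Ppargc1a at -0.40. For Ppargc1a, APOE4 replicate 1 read 5.86 log2, against 7.18 to 7.64 in the other APOE4 livers. The same liver was the lowest for Sirt1, at 6.05. Of 17 genes that mark mitochondrial content, set beside the mitochondrial Sod2 and Prdx3, 11 were above 0 with a median of 0.03 and none at that level. Citrate synthase (Cs) was at 0.29, the outer membrane import gene Tomm22 at 0.18 and the fusion gene Opa1 at -0.16.

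**Figure D4:**
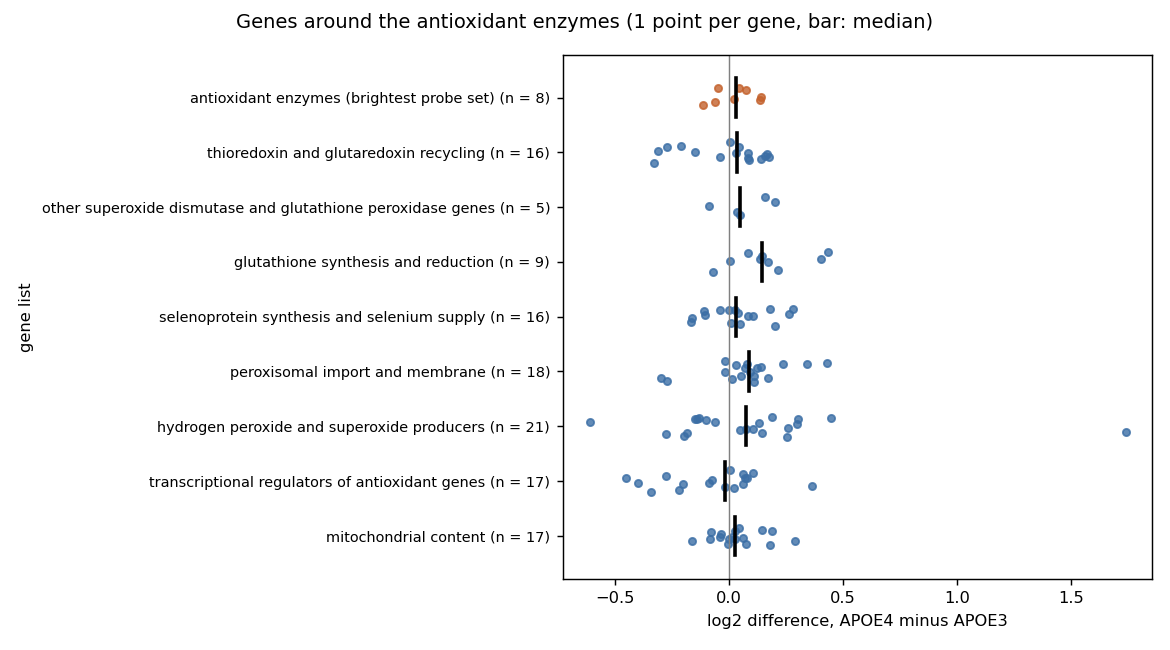
Log2 difference between APOE4 and APOE3 livers (horizontal axis) of the 8 members by their brightest probe set (top row) and of the tested genes of the 8 lists (other rows), 1 point per gene, with the median as a black bar and a random vertical offset for legibility. The list medians lie between -0.02 and 0.14, and the single point at 1.74 is Hao2 (unadjusted p = 0.22 in limma).

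**Figure D5:**
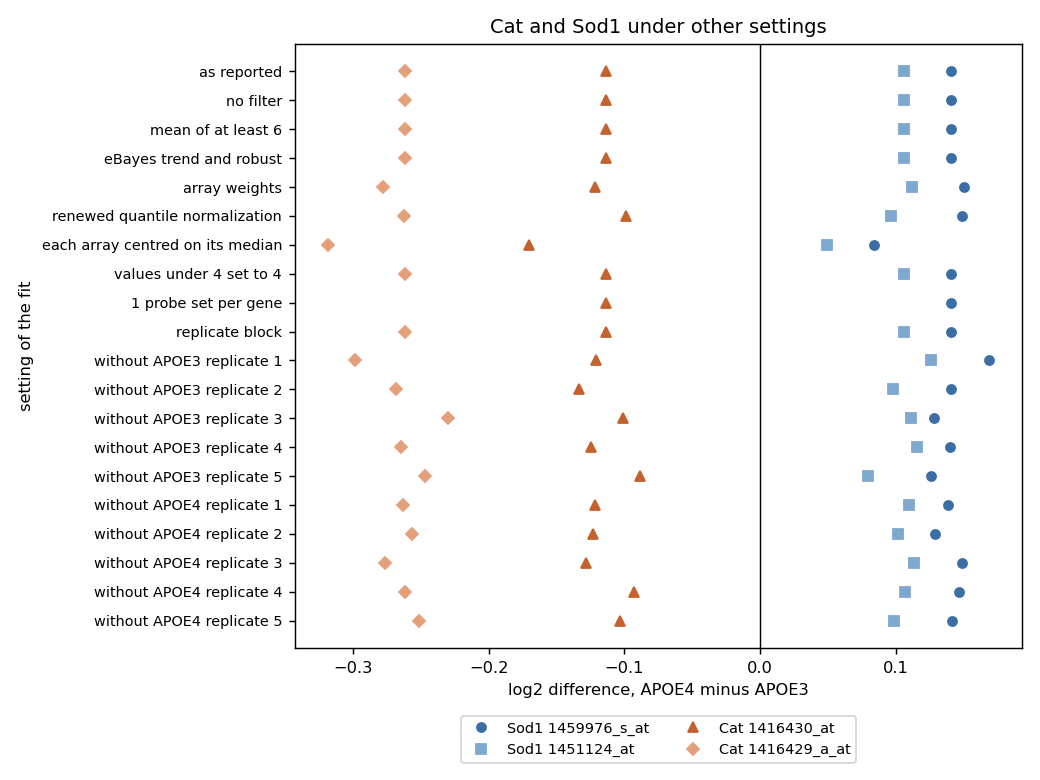
Log2 difference between APOE4 and APOE3 livers (horizontal axis) of the bright Cat and Sod1 probe sets under each setting of the fit (vertical axis), among them the fits that leave out 1 animal each. Cat 1416429_a_at stays between -0.32 and -0.23 and Sod1 1459976_s_at between 0.08 and 0.17.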

How the data were processed

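Biotin-labelled RNA made from 2 ug of liver RNA, 1 extract per animal, was measured on one-colour arrays, 5 per genotype; groups came from the sample titles. In R 2.7.1 the authors computed log2 values with GCRMA 2.12.1, a method that models nonspecific binding from the GC content of probes and scales arrays to each other, per the submitters' processing notes for the names and versions. Deposited values under about 4 log2 therefore have no sure scale. Probe filters and genome build: not given in the sources used here. The table had 0 columns of no sample.

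Genes were named from the platform annotation, in which 34958 probe sets had 1 symbol, 932 had several and 9211 had none. The 64 control probe sets were left out. Probe sets with a mean of at least 4 over all arrays were fitted with lmFit and eBayes of limma 3.58.1 (R 4.3.3, no trend, two-sided), with Benjamini-Hochberg adjustment over 14732. Exact permutation tests used all 252 splits into 5 and 5. The fit was tested on simulated data. Precision is limited by the number of arrays. Promoters came from RefSeq (GRCm38.p6), with 9 of 10 member symbols matched. Scans or extraction batches were not given. Figures used Python 3.11.15 and matplotlib 3.10.9.

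The members and lists were chosen with earlier results of these data known. By rule, all members were named, and of each list the genes that passed or else the 3 with the smallest p; the 3 genes closest to the member of widest spread were added. Alternatives covered the filter, the prior, array weights, scaling, the floor, 1 probe set per gene, the block and leaving out each animal.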

Additional observations from a re-analysis of the deposited data

Results flagged for a closer look

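In 90 groups of 5 values, those of the member probe sets and of the named genes of the lists in each genotype, 2 held an array far from the other 4, where chance gives about 1 in 20. None was of a member. Ppargc1a (1434100_x_at), a coactivator gene of mitochondrial and antioxidant genes, was at 5.86 log2 in APOE4 replicate 1, against 7.18 to 7.64 in the other APOE4 livers. Tomm22 (1429103_at), of the mitochondrial outer membrane import complex, was at 9.38 in APOE3 replicate 1, against 8.95 to 9.07 in the other APOE3 livers.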

How the results depend on the processing

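The count of 0 member probe sets past the adjusted threshold held under all 19 alternatives, at a lowest adjusted p of 0.25 in limma (Cat with trend and robust settings). Of 312 member values recomputed, 294 kept their direction. The count at an unadjusted p under 0.05, 1 of 17 as reported, became 2 of 21 with no filter and 4 of 17 with trend and robust settings. It was 0 of 8 with 1 probe set per gene, which leaves out the Cat probe set concerned, and stayed 1 without 1 animal. Among all tested probe sets this count was 1178 of 14732 as reported, 3699 of 45037 with no filter and 1204 of 14732 with trend and robust settings. It was 627 of 8535 with 1 probe set per gene and 914 to 1680 of 14732 without 1 animal. Over the array 12 probe sets passed as reported, 5 with a filter at 6 and 7 with 1 probe set per gene, both of which test fewer probe sets, 11 with the replicate block, and 8 to 14 without 1 animal. The block left the members' differences as they were, by construction, and called none of them (Cat adjusted p = 0.54); the labels do not say that a number marks shared animals or days, the deviations of same-numbered animals correlated at 0.0019, 0.19, 0.41, -0.079 and 0.29, over 0.1 for 3 of 5 pairs and not for all, and 2 of 5 APOE3 animals correlated best with the APOE4 animal of their own number. With each array centred, Sod2 went to -0.013 (1448610_a_at) and -0.044 (1454976_at) and Prdx2 (1418506_a_at) to -0.034; with renewed quantile normalization the last 2 were at -0.019 and -0.013. Without 1 animal, values that crossed 0 ranged from -0.013 to 0.17 for Sod1 1435304_at, -0.079 to 0.011 for Sod2 1417193_at and -0.047 to 0.052 for 1454976_at, -0.13 to 0.034 for Gpx4 1451695_a_at and -0.045 to 0.20 for 1456193_x_at, -0.019 to 0.084 for Prdx2 1418506_a_at, -0.0029 to 0.19 for Prdx3 and -0.13 to 0.028 for Prdx4 1416166_a_at. Of the values that did not cross 0, those of Sod2 1448610_a_at (0.0090 to 0.089), Gpx1 (-0.064 to -0.029), Prdx2 1430979_a_at (-0.34 to -0.080) and Prdx4 1435731_x_at (-0.087 to -0.028) moved by over 1.5 times. The cause of these shifts was not tested.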
